A study of Homo sapiens with 6 samples.

Results

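Genes that build, sense and move sterols and fatty acids were followed through knockdown of the long non-coding RNA MALAT1 in 3 non-small cell lung cancer (NSCLC) cell lines. The group held 37 genes of the 46427 in the deposited gene table, and each was taken by its symbol from a list of the enzymes from the mevalonate pathway to cholesterol, the regulators of SREBP, sterol transporters, lipogenic enzymes, and the LXR receptors with some of their targets. The rule itself uses no expression value, but the list was drawn up with earlier results of these data known. All 37 had reads in every library, with mean counts from 602.7 to 44179.2.

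Transcriptome sequencing was carried out on H460, H1299 and A549 cells, all established NSCLC lines with no engineered allele named in the labels. Each line gave 1 library labelled as a non-treated control and 1 library of cells treated with si-MALAT1, a small interfering RNA against MALAT1, so there were 6 libraries and no replicate of a line under a condition. The labels call the controls non-treated, whereas the study's methods describe cells given a control siRNA, and which of them was sequenced is not settled by the sources used here. If the controls were untreated, the effects of transfection and of the siRNA itself cannot be told apart from the loss of MALAT1. Differences within 1 line therefore had no replicate check, and tests of si-MALAT1 used the 3 lines as the 3 pairs.

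Cells make cholesterol from acetyl-CoA through mevalonate, squalene and lanosterol. When membrane sterol is low, the escort protein SCAP carries the SREBP transcription factors from the endoplasmic reticulum to the Golgi, where they are cut and freed to switch on sterol and fatty acid enzymes, and the INSIG proteins hold SCAP back when sterol is plentiful. For cholesterol, the oxysterol receptors of the LXR family act in the other direction. They induce its export through ABCA1 and ABCG1 and the breakdown of the LDL receptor through MYLIP.

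Total read counts ranged from 42506818 to 68515992 per library, with the A549 pair the shallowest. MALAT1 itself, the target and no member of the group, had 231045 reads in the control and 43858 with si-MALAT1 in H460, 407551 against 47935 in the H1299 pair, and 93747 against 14447 in the A549 pair, log2 fold changes of -2.32, -2.96 and -2.84. The epithelial keratins KRT8 and KRT18 were present in every library at no less than 123 TPM (a level scaled for transcript length and library depth), but the other 3 epithelial markers were not. KRT19 was at 399 to 550 TPM in H460 and at most 2.23 TPM elsewhere, EPCAM was at 0.252 to 8.04 TPM, and CDH1 was at most 0.0468 TPM in H460 and H1299 and at least 27.8 TPM in A549. The leukocyte markers PTPRC and CD3E and the endothelial marker CDH5 were at 0 in all 6 libraries, and CD14 reached 9.25 TPM. In A549 with si-MALAT1, KRT8 was at 793 against 1780 TPM and KRT18 at 1240 against 2920 TPM, while KRT19 (2.23 against 0.888), EPCAM (8.04 against 3.61), CDH1 (39.4 against 27.8) and CD14 (9.06 against 4.53) were higher. The part of these markers in the A549 values below was not tested.

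After si-MALAT1, ABCA1, INSIG1, MYLIP and MSMO1 were the members with the smallest p-values in both tests run, and all 4 were higher in every line, whereas most synthesis enzymes differed by less than 1.5-fold and with mixed signs. There were 10 members higher and 4 lower in all 3 lines, and 23 had mixed signs. The 10 were MVK, PMVK, MVD, MSMO1, INSIG1, INSIG2, ACACA, ABCA1, MYLIP and NR1H3, and the 4 were LSS, SCD, FADS1 and NR1H2. TMM scaling gave the same 10 and 4 genes, and on the log2(TPM + 1) scale INSIG2 and ACACA left the higher genes and IDI1 and FDPS joined the lower ones. These shares, 27.0% and 10.8% of the members, stood beside 21.4% and 18.8% of the 17834 genes with a read in each library, and beside 25.0% and 20.8% of the 10514 genes with a mean count of at least 500. The higher share was thus near the background of genes of like depth, and the lower share was under it. The members' median log2 fold change was 0.05 (H460), 0.12 (H1299) and 0.05 (A549), against 0.02, 0.02 and 0.01 for all genes.

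Within a line, fold changes are differences of log2(scaled count + 1), and a change past 1.5-fold was counted without a test. In total 5 members were past it upward in H460 (HMGCS1, MVK, INSIG1, ABCA1 and MYLIP), which is 13.5% of the group beside 9.5% of all genes and 3.61% of the genes with a mean count of at least 500. Downward, STARD4 was the 1 member past it in H460, beside 10.3% and 4.37%. In H1299, HMGCS1, MVK, MSMO1 and ABCA1 were past it upward, 10.8% beside 11.7% and 8.21%, and no member was past it downward, beside 11.4% and 7.33%. A549 had ABCA1 and MYLIP upward, 5.41% beside 11.5% and 5.25%, and LSS downward, 2.7% beside 11.4% and 7.17%. In H460 the downward count was 3 with TMM scaling or on the log2(TPM + 1) scale. The upward count of 5 in H460 was smaller on the log2(TPM + 1) scale, as given in the closing part on processing. ABCA1 was the 1 member past 1.5-fold in all 3 lines, where 1.19% of all genes and 0.656% of the well counted genes were, and 0 members were past it downward in all 3, beside 1.28% and 1.19%. ABCA1 was only just past it in H460, with a log2 fold change of 0.59 where 1.5-fold is 0.58, and under TMM scaling of the counts or on the log2(TPM + 1) scale no member was past it in all 3 lines.

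**Figure D1:**
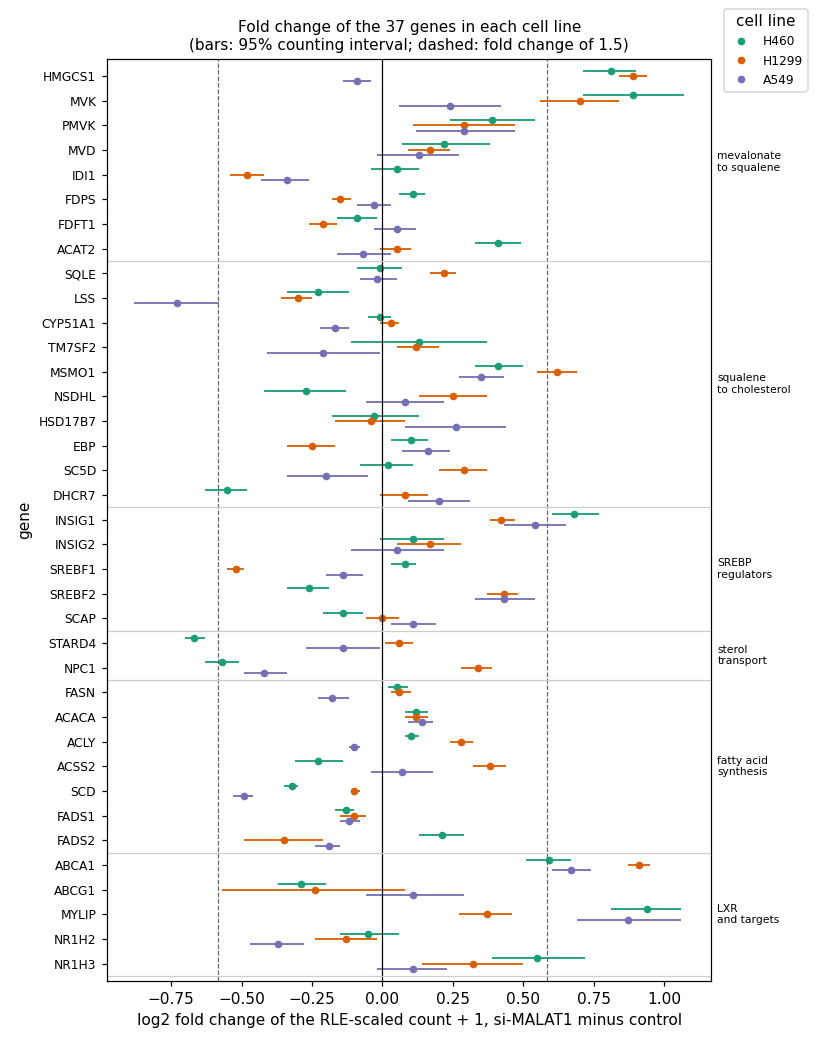
Log2 fold change of the scaled count + 1 (x axis, si-MALAT1 minus control) for each of the 37 genes (y axis, by role) in H460, H1299 and A549, with bars for the 95% counting interval and dashed lines at a fold change of 1.5. ABCA1 lies right of the upper line in all 3 lines at 0.59, 0.91 and 0.67, while FASN, ACACA and FADS1 stay close to 0.

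When the 3 pairs were tested with edgeR with cell line as a block, no member reached an adjusted p under 0.05. That test called 1 of 19122 genes, MALAT1, which is 0.00523%, on 2 residual degrees of freedom. At an unadjusted edgeR p under 0.05, 6 members were higher (HMGCS1, MVK, MSMO1, INSIG1, ABCA1 and MYLIP), 16.2% beside 7.38% of all genes, and 2 were lower (LSS and SCD), 5.41% beside 7.59%. DESeq2 on the same pairs called 4 members higher, ABCA1, INSIG1, MYLIP and MSMO1, 10.8% beside 4.15% of 13561 genes, and 0 lower, beside 4.25%. Those 4 calls thus depend on the tool, and the values of both tools are given for each gene. For both tools the background was all tested genes. The shares among genes with a mean count of at least 500 were not counted, so the members were not compared with genes of like depth here.

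ABCA1, the transporter that exports cholesterol and phospholipid to apolipoproteins, lies at chr9:104781006-104928232 (GRCh38, minus strand). It had 2260 reads in the H460 control and 3212 with si-MALAT1, 7785 and 13345 in the H1299 pair, and 2650 and 4650 in the A549 pair. The si-MALAT1 library was the higher of the pair in every line, but the lines overlapped, since the H1299 control exceeded the treated H460 and A549 libraries. The log2 fold changes were 0.59, 0.91 and 0.67, a mean log2 change of 0.72 ± 0.17 (SD, n = 3 lines). The edgeR adjusted p was 0.0901 and the DESeq2 adjusted p was 5.37e-06.

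MYLIP, also known as IDOL, is the ubiquitin ligase that sends the LDL receptor to degradation and lies at chr6:16129086-16151015 on the plus strand. Its counts were 815 in the H460 control and 1476 with si-MALAT1, 1638 and 1930 in the H1299 pair, and 379 and 768 in the A549 pair. The pairs in H460 and A549 were nearly equally far apart, and the H1299 pair was closer. The mean log2 change was 0.73 ± 0.31 (SD, n = 3 lines), with an edgeR adjusted p of 0.13 and a DESeq2 adjusted p of 0.00647.

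The remaining LXR genes showed no shared direction. NR1H3, which encodes LXR alpha, had log2 fold changes of 0.55 (H460), 0.32 (H1299) and 0.11 (A549). NR1H2, which encodes LXR beta, had -0.05, -0.13 and -0.37 in the same order. ABCG1, which passes cholesterol to high density lipoprotein, had -0.29, -0.24 and 0.11, so it did not follow ABCA1. The TPM ratio of ABCA1 to ABCG1 was higher with si-MALAT1 in each line, 0.576 against 0.356 in H460, 32.8 against 13.8 in H1299 and 3.14 against 2.12 in A549. The TPM ratio of NR1H2 to NR1H3 was lower in each line, from 2.53 to 1.54, from 2.2 to 1.76 and from 1.6 to 1.09.

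INSIG1, the endoplasmic reticulum anchor that retains SCAP and is itself an SREBP target, lies at chr7:155297772-155310235 on the plus strand. Reads numbered 1807 in the H460 control and 2743 with si-MALAT1, 6845 and 8383 in the H1299 pair, and 1068 and 1720 in the A549 pair. Each treated library was above its own control, and both H1299 libraries were above all others. The mean log2 change was 0.55 ± 0.13 (SD, n = 3 lines), the edgeR adjusted p 0.12 and the DESeq2 adjusted p 0.00111. Its paralog INSIG2 had log2 fold changes of 0.11, 0.17 and 0.05, and the INSIG1 to INSIG2 TPM ratio with and without si-MALAT1 was 2.76 and 1.83 in H460, 6.74 and 6.39 in H1299, then 3.05 and 1.95 in A549.

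The SREBP genes themselves did not share a direction. SREBF1, which encodes the SREBP mainly tied to fatty acid synthesis, had log2 fold changes of 0.08 (H460), -0.52 (H1299) and -0.14 (A549). SREBF2, which encodes the one mainly tied to cholesterol synthesis, had -0.26, 0.43 and 0.43, and SCAP stayed between -0.14 and 0.11. In TPM the SREBF1 to SREBF2 ratio went up in H460, from 2.46 to 3.44, and down in H1299, from 4.56 to 2.46, and in A549, from 3.32 to 2.43.

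MSMO1, the oxidase that removes the C4 methyl groups on the way from lanosterol to cholesterol, lies at chr4:165327666-165343164 on the plus strand. It had 1901 reads in the H460 control and 2394 with si-MALAT1, 2920 and 4094 in the H1299 pair, and 2213 and 3116 in the A549 pair. The treated library was the higher one in each line, and H1299 showed the largest of the 3 fold changes, 1.54. The mean log2 change was 0.46 ± 0.14 (SD, n = 3 lines), with an edgeR adjusted p of 0.165 and a DESeq2 adjusted p of 0.0129. For these 4 genes the edgeR adjusted p without the A549 pair was between 0.698 and 0.8, and without the H460 or the H1299 pair between 0.0716 and 0.266.

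The windows around the start sites of these 4 genes are printed because they are the members that DESeq2 called. Each runs 5′ to 3′ on the gene's own strand from 250 bases before the start site to 50 after it, taken from RefSeq on GRCh38.p14, at chr9:104928106-104928405 (minus strand), chr6:16128836-16129135 (plus), chr7:155297628-155297927 (plus) and chr4:165327419-165327718 (plus). Capitals mark matches on either strand to the E-box CACGTG, the core of sites read by basic helix-loop-helix factors, and to CCAAT, the box read by NF-Y, which often acts beside SREBP.
ABCA1: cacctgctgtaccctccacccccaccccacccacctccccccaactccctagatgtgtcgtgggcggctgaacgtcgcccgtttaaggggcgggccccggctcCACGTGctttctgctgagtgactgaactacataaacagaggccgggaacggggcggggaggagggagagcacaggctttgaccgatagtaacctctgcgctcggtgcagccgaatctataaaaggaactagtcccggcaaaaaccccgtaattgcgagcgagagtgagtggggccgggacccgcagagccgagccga
MYLIP: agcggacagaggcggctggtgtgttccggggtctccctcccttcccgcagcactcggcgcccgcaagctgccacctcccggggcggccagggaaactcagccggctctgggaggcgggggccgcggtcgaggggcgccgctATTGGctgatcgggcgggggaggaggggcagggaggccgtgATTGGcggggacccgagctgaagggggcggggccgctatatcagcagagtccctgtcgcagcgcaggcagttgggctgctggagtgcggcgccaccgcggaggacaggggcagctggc
INSIG1: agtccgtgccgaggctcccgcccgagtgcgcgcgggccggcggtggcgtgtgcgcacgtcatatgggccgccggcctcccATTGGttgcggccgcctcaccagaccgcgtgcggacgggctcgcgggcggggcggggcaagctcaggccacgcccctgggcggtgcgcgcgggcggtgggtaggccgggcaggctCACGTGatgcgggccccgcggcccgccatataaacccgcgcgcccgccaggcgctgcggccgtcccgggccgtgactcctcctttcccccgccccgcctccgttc
MSMO1: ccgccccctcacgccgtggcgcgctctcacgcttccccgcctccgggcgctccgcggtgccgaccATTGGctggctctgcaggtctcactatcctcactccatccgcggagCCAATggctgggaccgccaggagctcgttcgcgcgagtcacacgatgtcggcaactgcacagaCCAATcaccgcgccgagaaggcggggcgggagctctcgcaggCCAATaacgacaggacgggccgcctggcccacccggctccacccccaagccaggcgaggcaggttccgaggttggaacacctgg

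In these windows ABCA1 held 1 E-box, with its first base at -147, and no CCAAT, whereas MYLIP held CCAAT matches that start at -109 and -68 and no E-box. INSIG1 held 1 E-box at -55 and 1 CCAAT at -170. MSMO1 held 4 CCAAT matches, at -185, -139, -76 and -34. A window was found for 32 of the 37 members, all but ABCG1, ACAT2, FASN, FDFT1 and SQLE. CCAAT was present in 19 of the 32 (59.4%) against 36.5% of 15515 promoters of protein-coding genes, and the E-box in 5 (15.6%) against 8.95%. The GC box GGGCGG, the Sp1 site, was present in 29 (90.6%) against 59.1%. The sterol regulatory element TCACNCCAC was found in 1 member, SREBF2, against 1.2% of promoters, and the LXR element, a direct repeat with a spacer of 4 bases, in 0 members against 0.00645%. These searches took exact letters on both strands and are descriptions of the windows alone. For the LXR element only a perfect repeat was searched, and 1 of 15515 promoters held it. Sites that depart from the perfect repeat were not searched for. The count of 0 members therefore does not show that the windows, that of ABCA1 included, lack an LXR site. Sterol regulatory elements that depart from TCACNCCAC or lie outside the windows were not searched for either. The count of 1 member for that element thus does not show that the other genes lack one.

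At the head of the pathway, HMGCS1, which makes HMG-CoA, lies at chr5:43287470-43313477 on the minus strand. Its reads were 1520 in the H460 control and 2511 with si-MALAT1, 4504 and 7623 in the H1299 pair, and 6280 and 6536 in the A549 pair. The treated library was clearly higher in H460 and H1299, at 1.75-fold and 1.85-fold, but not in A549 once scaled for depth, at 0.941-fold. The mean log2 change was 0.54 ± 0.54 (SD, n = 3 lines), and the edgeR adjusted p was 0.324.

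MVK, mevalonate kinase, lies at chr12:109573461-109598125 on the plus strand. It had 398 reads in the H460 control and 698 with si-MALAT1, 674 and 999 in the H1299 pair, and 456 and 596 in the A549 pair. All 3 treated libraries were above their controls, A549 least. The mean log2 change was 0.61 ± 0.33 (SD, n = 3 lines), the edgeR adjusted p 0.206 and the DESeq2 adjusted p 0.0651.

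The 8 genes from acetyl-CoA to squalene had median log2 fold changes of 0.31 (H460), 0.11 (H1299) and 0.01 (A549). PMVK, the next kinase, had 0.39, 0.29 and 0.29, and MVD, the decarboxylase that yields isopentenyl diphosphate, had 0.22, 0.17 and 0.13. The 3 consecutive mevalonate enzymes were thus higher in every line, each with an edgeR adjusted p of 0.206 or more. For MVD in A549 the counting interval, -0.02 to 0.27, included 0. Further down the chain this was not seen. IDI1, the isomerase, had 0.05, -0.48 and -0.34, FDPS, farnesyl diphosphate synthase, had 0.11, -0.15 and -0.03, and FDFT1, squalene synthase, had -0.09, -0.21 and 0.05. ACAT2, the cytosolic thiolase, had 0.41, 0.05 and -0.07.

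Among the 10 genes from squalene to cholesterol, 1 was higher and 1 lower in all 3 lines. LSS, lanosterol synthase, which closes the sterol ring, was the lower one and lies at chr21:46188446-46228824 on the minus strand. It had 1582 reads in the H460 control and 1273 with si-MALAT1, 6004 and 4438 in the H1299 pair, and 897 and 597 in the A549 pair. Every treated library was below its control, most in A549. The fold changes were 0.852, 0.809 and 0.602, a mean log2 change of -0.42 ± 0.27 (SD, n = 3 lines), with an edgeR adjusted p of 0.229 and a DESeq2 adjusted p of 0.0997.

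SQLE, squalene epoxidase, the step before LSS, had log2 fold changes of -0.01, 0.22 and -0.02, and CYP51A1, the demethylase after it, had -0.01, 0.03 and -0.17. Neither of these adjoining steps was lower in all 3 lines. Of the later enzymes, TM7SF2 ranged from -0.21 to 0.13, NSDHL from -0.27 to 0.25, HSD17B7 from -0.04 to 0.26, EBP from -0.25 to 0.16 and SC5D from -0.20 to 0.29. DHCR7, which makes cholesterol from its last precursor, had -0.55 in H460, 0.08 in H1299 and 0.20 in A549.

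STARD4, a carrier of sterol between membranes, lies at chr5:111491422-111512597 on the minus strand. It had 17989 reads in the H460 control and 10718 with si-MALAT1, 6318 and 6019 in the H1299 pair, and 985 and 990 in the A549 pair. Only the H460 pair stood apart, at 0.63-fold, and the edgeR adjusted p over the pairs was 0.512. Of its exon bases 70.7% overlap exons of genes on the opposite strand, chiefly CAMK4, which had 0 to 1683 reads. The study's methods name a stranded library kit. Whether the counting used strand is not given in the sources used here, so the STARD4 counts are uncertain. The same holds for ACAT2, FDPS, SREBF2 and CYP51A1, with 30.3%, 27.2%, 26.9% and 25.9% of exon bases overlapped. The main partners of ACAT2 and CYP51A1 had more reads than CAMK4, TCP1 with 13079 to 47712 and AKAP9 with 7174 to 25756. Those of FDPS and SREBF2 had fewer at most, RUSC1-AS1 with 73 to 308 and SHISA8 with 4 to 118. The share of bases alone thus does not rank how uncertain these counts are. NPC1, which releases cholesterol from lysosomes, had log2 fold changes of -0.57, 0.34 and -0.42.

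The 7 fatty acid genes were the one role with no member past 1.5-fold in any line, with log2 fold changes from -0.49 to 0.38. SCD, the desaturase that makes oleate, had 28646 reads in the H460 control and 21641 with si-MALAT1, 100579 and 85914 in the H1299 pair, and 15842 and 12453 in the A549 pair. It was lower in each line, by log2 fold changes of -0.32, -0.10 and -0.49, with an edgeR p of 0.0393 before and 0.306 after adjustment. FADS1, the delta-5 desaturase, had -0.13, -0.10 and -0.12. FASN, fatty acid synthase, had 0.05, 0.06 and -0.18, and ACACA, acetyl-CoA carboxylase, had 0.12, 0.12 and 0.14. ACLY, which supplies cytosolic acetyl-CoA from citrate, had 0.10, 0.28 and -0.10, and ACSS2, which makes it from acetate, had -0.23, 0.38 and 0.07. FADS2, the delta-6 desaturase, had 0.21, -0.35 and -0.19.

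**Figure D2:**
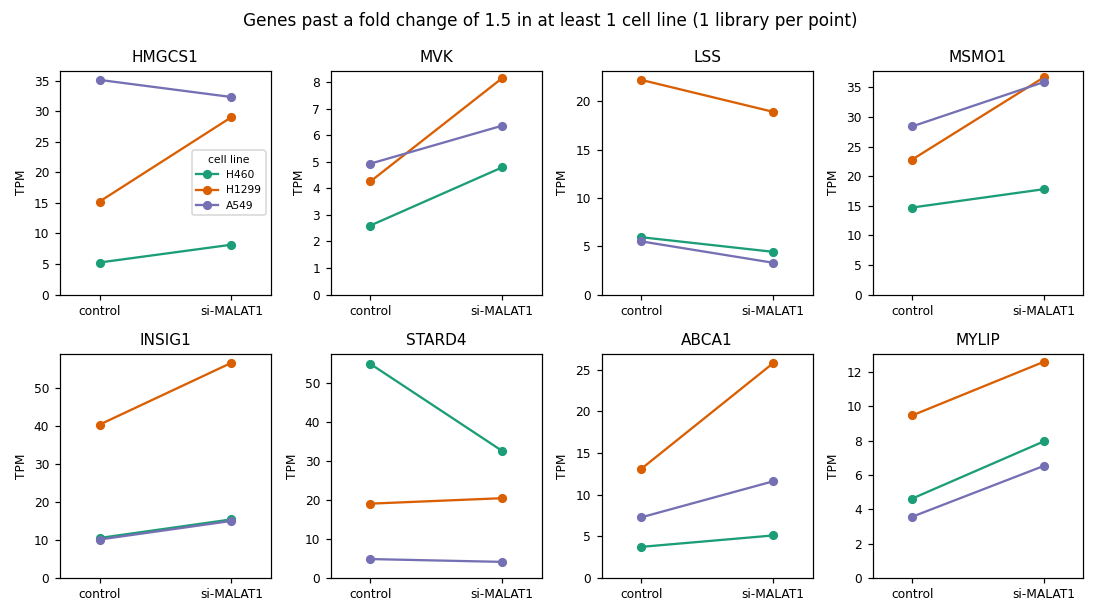
TPM (y axis) in the control and si-MALAT1 library (x axis) of H460, H1299 and A549, 1 point per library, for the 8 genes past a fold change of 1.5 in at least 1 line. ABCA1, MYLIP, INSIG1, MSMO1 and MVK slope upward in every line and LSS downward in every line, whereas HMGCS1 in A549 and STARD4 in H1299 go against the H460 slope.

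The median size of the log2 difference over the members was 0.73 for H1299 against H460, 0.56 for A549 against H460 and 0.97 for A549 against H1299, and within a pair 0.22 (H460), 0.25 (H1299) and 0.17 (A549). Over all genes the medians between lines were 0.92, 0.66 and 0.87, so the members were not set apart in this. Summed over the 37 genes, the level was 886 TPM in the H460 control, 1430 in the H1299 control and 1150 in the A549 control, and 803, 1510 and 1090 TPM with si-MALAT1. Single genes weighed much in these sums. The largest was FDPS in the H460 control (113 TPM), SCD in the H1299 control (332 TPM) and ACLY in the A549 control (252 TPM). H1299 had the highest mean TPM for 23 members, A549 for 11 and H460 for 3. By the edgeR differences of counts the tally was 22, 8 and 7, with PMVK, EBP, INSIG2 and ACACA then also highest in H460. Of the 5 SREBP regulators, H1299 was highest for 5 in TPM and for 4 by edgeR, and of the 8 genes up to squalene for 6 on either scale. In the edgeR fit each line was represented by its control and its si-MALAT1 library, with condition as a term, so these p-values measure the spread between lines in their response and not between cultures.

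H1299 against H460 gave 15 members called higher and 8 called lower (edgeR adjusted p under 0.05), beside 25.9% and 24.8% of 21771 genes. A549 against H460 gave 10 higher and 10 lower, beside 17.4% and 17.9%. A549 against H1299 gave 8 higher and 19 lower, beside 22.8% and 24.4%, so in that contrast the members lay mostly on the lower side. Of these calls, 16, 7 and 16 held under every alternative tried. In all 3 contrasts 10 members differed, namely MVD, FDPS, LSS, TM7SF2, SREBF1, STARD4, ACLY, FADS2, ABCA1 and ABCG1. Of these, 4 (STARD4, ACLY, FADS2 and ABCG1) kept all 3 calls under every alternative, and LSS for A549 against H460 (edgeR adjusted p = 0.0468) kept its call in 3 of 10. MVK, NSDHL, HSD17B7, SCAP, NPC1 and ACACA passed in none, their differences lying between -0.42 and 0.53 on the log2 scale. The shares of all genes called in all 3 contrasts or in none were not counted, so these counts of members have no background. For the single contrasts, shares among genes with a mean count of at least 500 were not counted either.

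Of the 18 sterol synthesis genes, 10 were called higher and 3 lower (PMVK, EBP and DHCR7) in H1299 than in H460. The shares of all 21771 genes there were 25.9% and 24.8%. In A549 against H1299, 2 were called higher and 9 lower, beside 22.8% and 24.4%. A549 against H460 showed little lean, with 5 higher and 4 lower, beside 17.4% and 17.9%. TM7SF2, a C14 sterol reductase, had a mean of 29.7 TPM in H1299, 6.77 in A549 and 2.94 in H460, a log2 difference of 2.98 ± 0.17 (SE) for H1299 against H460. LSS had 20.5, 4.4 and 5.18 TPM in the same order, with differences of 1.65 ± 0.17 against H460 and, for A549 against H1299, -2.21 ± 0.17. INSIG1 had 48.5, 12.6 and 13.0 TPM, and A549 against H460 did not pass the test (edgeR adjusted p = 0.107). SCD had 329 TPM in H1299 against 73.7 in A549 and 80.9 in H460, and there too A549 against H460 did not pass it (edgeR adjusted p = 0.071).

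The levels of ACLY and FADS2 were highest in A549. ACLY had 242 TPM in A549 against 54.4 in H1299 and 73.1 in H460, a log2 difference of 2.22 ± 0.16 (SE) from H1299. FADS2 had 60.5 TPM in A549, 5.21 in H1299 and 14.7 in H460, a log2 difference of 3.60 ± 0.19 between A549 and H1299. FADS1, the other desaturase of that pathway, had 73.5 TPM in A549, 36.1 in H1299 and 59.6 in H460, and A549 against H460 did not pass the test (edgeR adjusted p = 0.977). HMGCS1 had 33.7, 22.1 and 6.7 TPM in A549, H1299 and H460, and A549 against H1299 did not pass the test (edgeR adjusted p = 0.054). NR1H3 had 16.6 TPM in A549 against 5.63 in H1299 and 5.69 in H460.

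In mean TPM, H460 was highest for STARD4, ABCG1 and DHCR7. STARD4 had 43.6 TPM in H460, 19.7 in H1299 and 4.44 in A549, a log2 difference of -3.44 ± 0.22 (SE) for A549 against H460. ABCG1 had 9.65 TPM in H460, 3.57 in A549 and 0.869 in H1299, a log2 difference of -4.10 ± 0.19 for H1299 against H460. ABCA1 ran the opposite way, with 4.41 TPM in H460, 9.43 in A549 and 19.4 in H1299, so the cholesterol exporters were in opposite order across the lines. DHCR7 had 20.8 TPM in H460, 15.9 TPM for H1299 and 13.5 TPM for A549, and the latter pair did not pass the test (edgeR adjusted p = 0.524). This order rested on the H460 control (25.7 TPM), since with si-MALAT1 H460 had 15.9 TPM and H1299 had 16.8. Without the H460 control the log2 difference of H1299 from H460 was -0.34 in place of -0.70 (edgeR adjusted p = 0.197), and that of A549 from H460 was -0.52 in place of -0.88 (edgeR adjusted p = 0.0928).

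**Figure D3:**
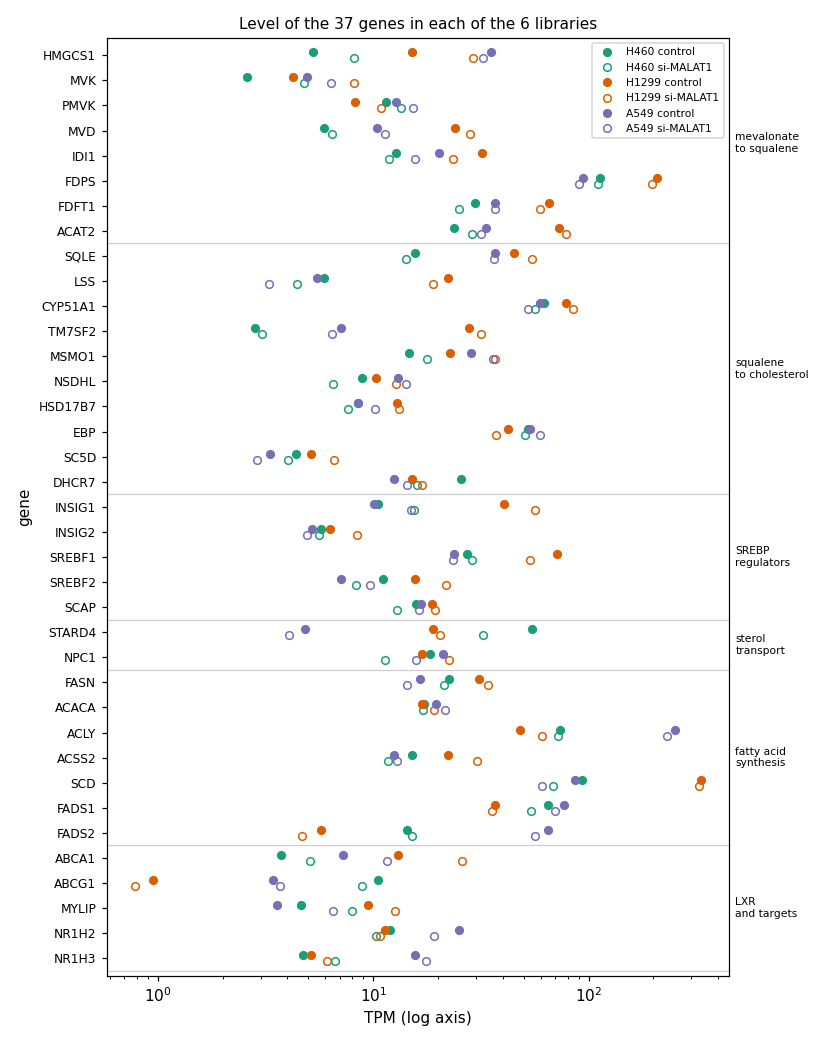
TPM on a log axis (x) of the 37 genes (y, by role) in each of the 6 libraries, filled for control and open for si-MALAT1. For FADS2 the points of a line lie close together compared with the gaps between lines, at 64.8 and 56.2 TPM in A549 against 5.75 and 4.68 in H1299, whereas for MVK, at 4.26 and 8.15 TPM in H1299 against 4.93 and 6.36 in A549, they do not.

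**Figure D4:**
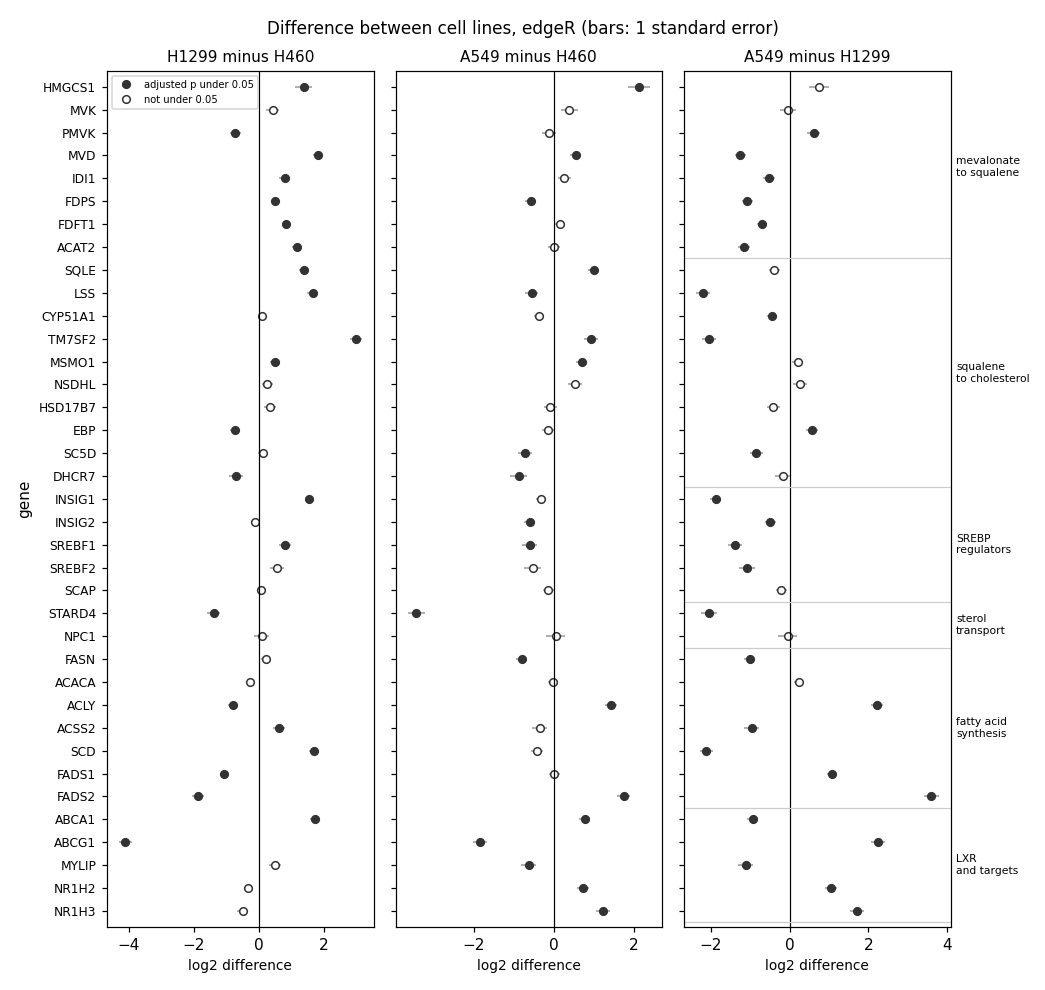
Log2 difference between lines (x axis, bars 1 standard error from edgeR) for the 37 genes (y axis, by role) in the 3 contrasts, with filled points at an adjusted p under 0.05. ABCG1 reaches -4.10 for H1299 minus H460, STARD4 -3.44 for A549 minus H460 and FADS2 3.60 for A549 minus H1299.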

How the data were processed

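Total RNA from the 6 libraries was sequenced, and the authors trimmed the reads and aligned them to GRCh38 with HISAT (2.1.0 in the submitters' processing notes). StringTie on an NCBI annotation then gave the deposited read counts and the deposited TPM values per gene, and the authors also deposited the annotation whose exon positions give the gene coordinates. 18 columns of other samples, and the authors' fold change and p-value columns, were not used.

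Counts were tested over all genes with edgeR 4.0.16 (quasi-likelihood, TMM, Benjamini-Hochberg adjustment) in R 4.3.3, with condition and cell line as terms, which left 2 residual degrees of freedom. Pairs come from the cell line that both libraries share. DESeq2 1.42.0 was the alternative. Within a line, log2(RLE-scaled count + 1) was compared without a test, and its 95% exact Clopper-Pearson interval covers counting error only. Other scalings, filters, a pseudocount of 10, log2(TPM + 1) and each pair or library left out were tried. The script was tested on simulated data: of genes changed 1.5-fold, 2-fold and 4-fold in the paired design with 19122 genes, 12%, 72.9% and 100% were recovered. The recovery in the 6 libraries themselves was not tested. There edgeR did not call ERLIN2, described below, with log2 fold changes of -1.15, -1.32 and -1.39 (edgeR adjusted p = 0.0734).

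All members are named, with counts in every library for those past 1.5-fold in a line or called by DESeq2, and the calls singled out elsewhere were chosen after their values were seen. The members and lists were chosen with earlier results of these data known. Some results of the further list of lipid genes are not reported here.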

Additional observations from a re-analysis of the deposited data

Results flagged for a closer look

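For 7 members the log2 fold changes of 2 lines had opposite signs, each with a counting interval away from 0, and lay at least 1.5-fold apart. With 1 library per line and condition, none of these differences was tested. The share of all genes that meet the same rule was not counted, so 7 members cannot be called many or few. The interval covers counting error only and is narrow at these depths, as for STARD4 in H1299 (0.01 to 0.11). HMGCS1 was 0.98 higher in H1299 (0.89) than in A549 (-0.09). NPC1, the lysosomal cholesterol transporter, was 0.91 higher in H1299 (0.34) than in H460 (-0.57). DHCR7 was 0.75 higher in A549 (0.20) than in H460 (-0.55), and STARD4 was 0.73 higher in H1299 (0.06) than in H460 (-0.67). SREBF2 was 0.69 higher in A549 (0.43) than in H460 (-0.26). ACSS2 was 0.61 higher in H1299 (0.38) than in H460 (-0.23), and SREBF1 was 0.60 higher in H460 (0.08) than in H1299 (-0.52).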

How the results depend on the processing

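No named gene changed direction past its threshold under any alternative run. In the paired test with cell line as the replicate block, edgeR called 0 genes higher and 1 lower, while DESeq2 called 563 and 577. Without the block, or without the filter on low counts, the lower count was 0. Leaving out 1 pair gave 0 to 51 genes higher and 0 to 112 lower, with 51 higher without the H460 pair. Between lines, leaving out 1 library gave 8623 to 9928 genes for H1299 against H460 (11039 with all), 3736 to 8260 for A549 against H460 (7688), where the lowest came without the A549 control, and 5916 to 10755 for A549 against H1299 (10271). In H460, 2 members were past 1.5-fold upward on the log2(TPM + 1) scale in place of 5, and 3 downward with TMM scaling or TPM in place of 1. Under both scalings 0 members were past it in all 3 lines in place of 1. For single members, 94 paired values kept their side of the threshold and 4 passed it, all under DESeq2. Of the values between lines 596 kept it and 104 lost it, and within a line 52 moved outside their counting interval and 392 did not. The members' mean counts ran from 602.7 to 44179.2, and every line had 1 library per condition.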

Other observations

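A further list of 46 genes of sterol and lipid handling that are not among the 37 was read in the same fits. Reads were present in every library for 43 of them, and edgeR called 0, with 4 higher and 4 lower at an unadjusted p under 0.05, 9.3% each beside 7.38% and 7.59% of all genes. Genes that DESeq2 called included LBR, LIPA and GPAM, which were higher, and ERLIN2 and RNF145, which were lower. In all 3 lines 10 of the 43 (23.3%) were higher and 5 (11.6%) lower, beside 21.4% and 18.8% of all genes and 25.0% and 20.8% of genes with a mean count of at least 500.

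ERLIN2, an endoplasmic reticulum protein that takes part in the degradation of sterol-sensing proteins, was the 1 gene of the list past 1.5-fold in the same direction in all 3 lines. It had 4444 reads in the H460 control and 1898 with si-MALAT1, 3516 and 1284 in the H1299 pair, and 3630 and 1529 in the A549 pair, so all 3 treated libraries lay below all 3 controls. The log2 fold changes were -1.15, -1.32 and -1.39, with an edgeR adjusted p of 0.0734 and a DESeq2 adjusted p of 9.75e-19. LBR, which has C14 sterol reductase activity as TM7SF2 does, had log2 fold changes of 0.85, 0.32 and 1.00 in H460, H1299 and A549. LIPA, the lysosomal acid lipase, had 0.35, 0.89 and 0.77, and GPAM, the first enzyme of glycerolipid synthesis, had 0.49, 0.35 and 0.63. RNF145, a sterol-responsive ubiquitin ligase, had -0.22, -0.50 and -0.74. Besides ERLIN2, these 4 genes were singled out after their values were seen.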
